A study of Mus musculus with 12 samples.

Results

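Ttr, Folr1, Calml4, Igf2 and Igfbp2 are genes with high expression in the choroid plexus, the secretory epithelium that lines folds of the brain ventricles next to the hippocampus. All probe sets annotated with one of these 5 symbols were taken, which gave 7 of the 12422 probe sets that are not controls on the array. The array annotation gave 10833 probe sets a single symbol, for 8251 distinct genes. Of the 7 probe sets, 5 passed the filter on dim signals, 1 for each gene. The other 2, a second one for Igf2 and a second one for Folr1, did not. The question was how far the choroid plexus signal differed between the dissected samples.

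The samples came from mice with VP16-CREB, CREB fused to a viral activation domain so that it activates its target genes at all times; doxycycline (dox) keeps it silent, and taking dox away turns it on. Whole hippocampus was measured in wild-type mice (2 arrays) and in transgenic (VC) mice kept on dox (1 array), which together formed the never-induced group. It was also measured in VC mice 1 week (2 arrays), 2 weeks (2 arrays) and 5 weeks (1 array) after dox withdrawal. One further VC sample had the transgene on for 3 weeks and off again for 2 weeks, and is called reversed here; its title names VC mice and its description wild type. Microdissected CA1, a subfield of the hippocampus, was taken from wild type (1 array) and, 3 weeks after dox was stopped, from VC mice (2 arrays). Each hippocampal sample pooled 6 to 10 mice, so p-values measure the spread between pools. A group of 1 array takes its error from the replicated groups. The labels do not name the promoter that drives the transgene, nor strain, age or, for CA1, the number of mice. In RNA from whole tissue, fewer cells of a type and less RNA per cell cannot be told apart.

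The choroid plexus makes most of the cerebrospinal fluid and is attached along the margin of the hippocampus, so a dissection can take more or less of it along. Its epithelial cells make transthyretin, the product of Ttr, in very large amounts and carry folate from blood to cerebrospinal fluid through the folate receptor encoded by Folr1. Igf2 and Igfbp2 are made by choroid plexus too, but also by the meninges and vessels, and Igfbp2 by astrocytes as well.

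Start regions of Igf2, Igfbp2 and Calml4 are shown because the transgene product acts through cAMP response elements (CRE). In addition, Igf2 and Igfbp2 are the members whose 5 induced arrays all lay above the never-induced ones. The same was true of 1.71% of the probe sets that passed the filter. The windows run from 250 bases before to 50 bases after an annotated start, on mouse build GRCm38.p6 from RefSeq. Ttr was not looked up, and no window was found for Folr1. The table used held 4 windows for Igf2, 2 for Igfbp2 and 1 for Calml4. Each is written 5′ to 3′ along the gene. Capitals mark matches, on either strand, to the CRE half-site TGACG or the OTX-type motif TAATCC. These are Igf2 windows 2 (chr7:142661222-142661521, minus strand) and 3 (chr7:142658755-142659054, minus strand), Igfbp2 window 1 (chr1:72824230-72824529, plus strand) and Calml4 (chr9:62857854-62858153, plus strand):
Igf2 window 2: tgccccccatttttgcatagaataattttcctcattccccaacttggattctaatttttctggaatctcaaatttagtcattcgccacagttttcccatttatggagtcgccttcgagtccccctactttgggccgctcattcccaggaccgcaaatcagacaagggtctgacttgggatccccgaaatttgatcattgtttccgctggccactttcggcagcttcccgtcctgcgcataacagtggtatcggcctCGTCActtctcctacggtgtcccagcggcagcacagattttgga
Igf2 window 3: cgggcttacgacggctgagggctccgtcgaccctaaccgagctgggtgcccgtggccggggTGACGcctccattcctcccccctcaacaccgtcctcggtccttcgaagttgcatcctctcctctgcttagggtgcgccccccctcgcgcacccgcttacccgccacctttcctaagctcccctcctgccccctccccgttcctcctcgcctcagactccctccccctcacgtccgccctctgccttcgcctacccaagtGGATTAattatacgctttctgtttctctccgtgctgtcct
Igfbp2 window 1: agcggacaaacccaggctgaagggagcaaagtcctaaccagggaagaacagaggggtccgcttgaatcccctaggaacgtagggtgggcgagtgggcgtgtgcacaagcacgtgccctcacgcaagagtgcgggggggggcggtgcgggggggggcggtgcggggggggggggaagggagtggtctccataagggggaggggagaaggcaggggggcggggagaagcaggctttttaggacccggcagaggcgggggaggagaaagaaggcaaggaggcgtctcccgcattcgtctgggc
Calml4: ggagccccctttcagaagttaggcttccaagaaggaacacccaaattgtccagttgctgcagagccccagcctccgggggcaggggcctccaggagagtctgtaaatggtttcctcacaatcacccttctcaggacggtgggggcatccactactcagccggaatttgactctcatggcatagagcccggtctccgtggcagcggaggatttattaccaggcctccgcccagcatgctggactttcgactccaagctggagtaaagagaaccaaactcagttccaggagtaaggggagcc

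A CRE half-site was present in 2 of the 4 Igf2 windows and in none of the Igfbp2 or Calml4 windows. Of all 32851 start windows in the table, 20.8% held this half-site, so its presence is common. The full palindrome TGACGTCA, which contains the half-site, was in none of these 7 windows and in 1.79% of all windows. The OTX-type motif was in 1 Igf2 window and in 7.06% of all windows. The TATA motif TATAAA was in none of the 7 windows and in 13.6% of all. These matches describe letters in a window, not binding.

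Values below are log2 of intensity after each array was scaled to the same trimmed mean of 1000, with a floor at 6.04. A level of one probe set is not comparable with that of another, so only differences are compared between genes. The deposited scale was lower on wild-type hippocampus array 1 and on the 3 CA1 arrays (trimmed mean 500.3 to 500.4) than on the other 8 arrays (3001.5 to 3001.9). Creb1, taken as a check of the transgene, had 3 probe sets. One read from 6.04 to 6.33 on the never-induced arrays and from 8.31 to 9.63 on the induced hippocampal arrays, and a second from 6.36 to 7.66 and from 8.14 to 9.15. The third, under the filter, overlapped between these groups (6.04 to 7.19 and 6.08 to 7.53). On the reversed array the first read 7.10. On the CA1 arrays the first gave 6.04 for wild type, then 8.86 and 9.56 for VC.

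Ttr, which encodes the carrier of thyroid hormone and of retinol-binding protein in plasma and cerebrospinal fluid, varied more between hippocampal samples than nearly any other gene. It read 11.35 and 11.49 on the 2 wild-type arrays, 10.16 on dox, 12.91 and 13.10 after 1 week, 8.64 and 12.15 after 2, 12.58 after 5 and 9.21 on the reversed array. The highest were both 1-week arrays, and the lowest was 2-week array 1, which lay below every never-induced array. The 9 hippocampal values spanned 4.46, or 22.1-fold, and their SD of 1.62 was the fifth largest of the 7069 tested probe sets. The CA1 arrays gave 7.20 for wild type, then 6.32 and 7.93 for VC, below all 9 hippocampal arrays.

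Folr1, the folate receptor of the epithelium, followed the same order of arrays closely. It read 8.88 and 8.68 in wild type, 8.45 on dox, 9.32 and 9.44 after 1 week, 7.79 and 8.83 after 2, 9.35 after 5 and 7.87 on the reversed array. The 1-week and 5-week arrays were highest, and 2-week array 1 and the reversed array lowest, with a hippocampal span of 1.64 (3.12-fold). The CA1 arrays gave 6.31 for wild type, then 6.83 and 8.01 for VC, so the second VC array overlapped the lowest hippocampal arrays. The second Folr1 probe set, under the filter, read from 6.04 to 6.56 on all 12 arrays.

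Calml4, a calmodulin-like protein, was lowest on the same 2-week array, but was not highest at 1 week or 5 weeks. It read 9.17 and 9.13 in wild type, 8.53 on dox, 9.11 and 9.23 after 1 week, 7.78 and 9.30 after 2, 8.69 after 5 and 8.54 on the reversed array. Its 1-week values lay within the never-induced range or just above it, while those of Ttr lay clear of it. The CA1 arrays gave 6.91 for wild type, then 6.04 (the floor) and 6.90 for VC, below all hippocampal arrays.

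Igf2, a growth factor of the insulin family, varied less than Ttr, Folr1 and Calml4 between hippocampal arrays. Its SD of 0.30 there still ranked 1782 of the 7069 tested probe sets, counted from the largest. It read 11.47 and 11.28 in wild type, 11.07 on dox, 11.95 and 11.93 after 1 week, 11.79 and 11.53 after 2, 11.74 after 5 and 11.33 on the reversed array. All 5 induced arrays were above all 3 never-induced arrays, as for 1.71% of tested probe sets. The reversed array was within the never-induced range. The CA1 arrays gave 11.52 for wild type, then 11.50 and 11.11 for VC, inside the hippocampal range. The second Igf2 probe set was at the floor on 11 arrays and read 7.30 on 2-week array 1.

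Igfbp2, a binding protein that holds insulin-like growth factors in extracellular fluid, also varied less than Ttr, Folr1 and Calml4. Its hippocampal SD of 0.36 ranked 1229 of 7069. It read 10.58 and 10.59 in wild type, 10.26 on dox, 10.88 and 11.01 after 1 week, 11.02 and 11.14 after 2, 11.18 after 5 and 10.27 on the reversed array. All 5 induced arrays again lay above the never-induced ones, as for 1.71% of tested probe sets, and the reversed array lay at the on-dox value. The CA1 arrays gave 10.48 for wild type, then 11.61 and 10.97 for VC, the first of which was the highest of all 12 arrays. Gfap, an astrocyte marker chosen here with its values known, read from 11.79 to 12.21 on the never-induced arrays, 11.93 and 12.15 after 1 week, 13.75 and 13.56 after 2, and 14.35 after 5. In CA1 Gfap was 12.12 in wild type against 14.09 and 13.52 in VC mice. The 8 tested astrocyte markers as a list had a median CA1 VC difference from wild type of 0.043, with 5 of 8 positive. The median of the 8 tested astrocyte markers, relative to the never-induced mean, ran from 0.0044 to 0.39 on the induced hippocampal arrays, and their part in the Igfbp2 values was not tested. The hippocampal span was 0.92 for Igfbp2 and 0.87 for Igf2, against 1.51 for Calml4.

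**Figure D1:**
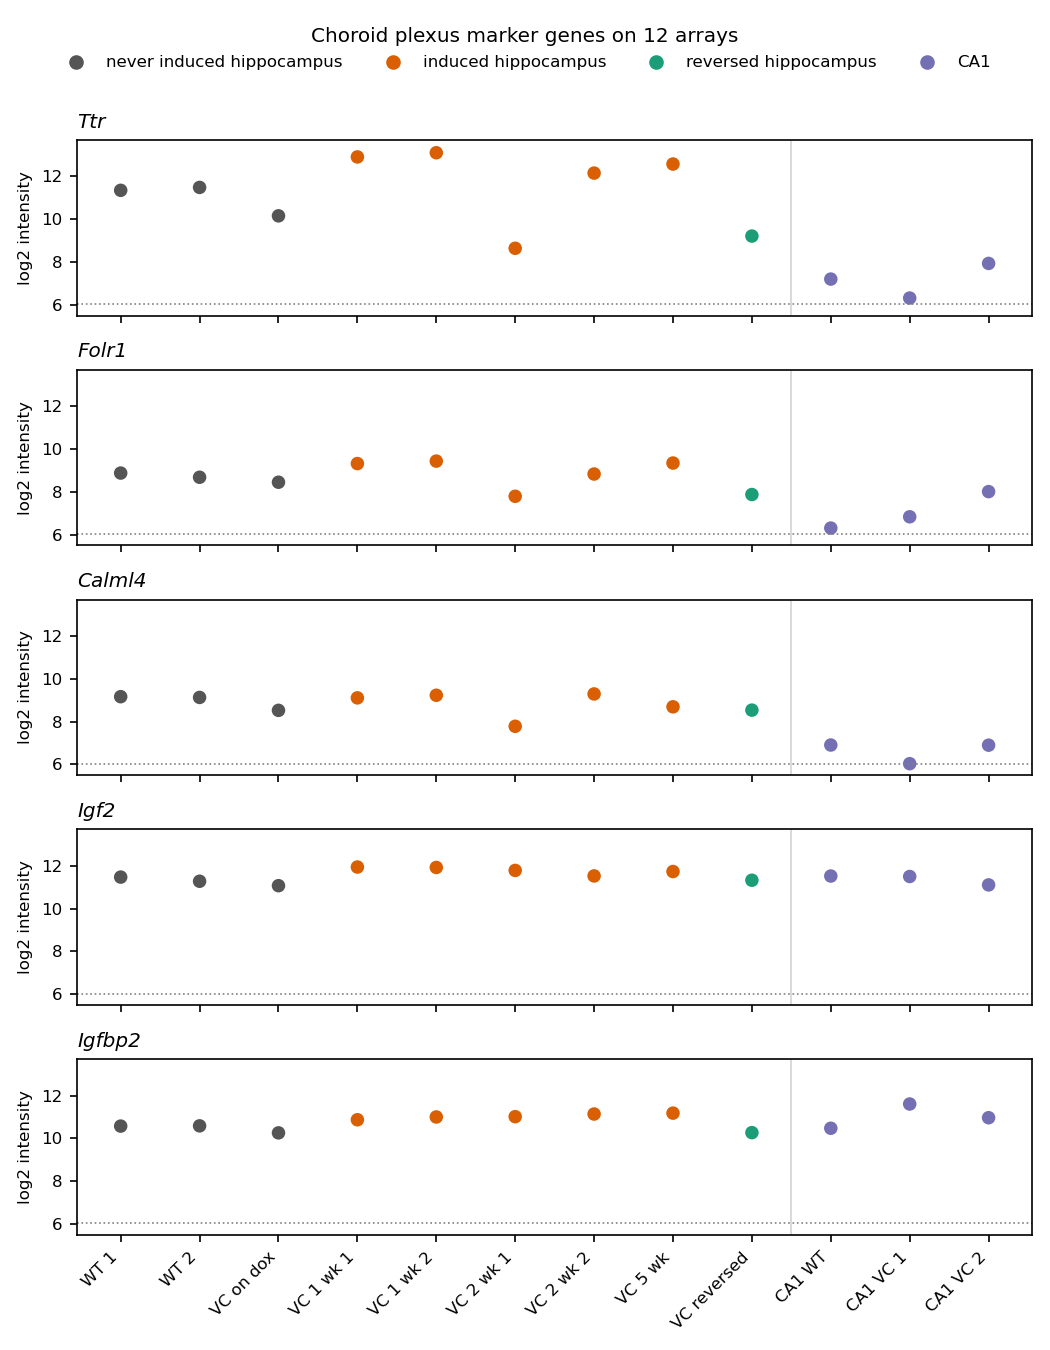
Log2 scaled intensity of each gene (vertical axis, the same range in each panel) on each of the 12 arrays; each point is 1 array, coloured by group, and the dotted line is the floor at 6.04. Ttr spans 4.46 over the hippocampal arrays and is lowest in CA1, while Igf2 spans 0.87 and stays at its hippocampal level in CA1.

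The replicate pairs show how much of this spread lay between samples of one group. Ttr differed by 0.14 between the wild-type arrays and by 0.20 between the 1-week arrays, but by 3.51 (11.4-fold) between the 2-week arrays. That was the third largest absolute difference between the 2-week arrays among 7069 probe sets. Calml4 differed there by 1.51 (2.85-fold) and Folr1 by 1.04 (2.06-fold), both higher on array 2. Igf2 was lower by 0.26 on array 2 in the same pair, and Igfbp2 higher by 0.12. The 2-week samples, which share genotype and treatment, thus stood far apart in Ttr, Folr1 and Calml4 and close in Igf2 and Igfbp2. The CA1 VC arrays also differed in Ttr, by 1.62.

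Over the 9 hippocampal arrays, which share groups and scaling, Folr1 had a Pearson correlation of 0.98 with Ttr and a Spearman correlation of 0.93, and Calml4 0.81 and 0.67. The corresponding values were 0.47 and 0.55 for Igf2 and 0.51 and 0.43 for Igfbp2. Without the reversed array and 2-week array 1, the arrays farthest from the Ttr median, Pearson's r was 0.93 for Folr1, 0.51 for Calml4, 0.96 for Igf2 and 0.86 for Igfbp2 (n = 7). The low correlation of Igf2 and Igfbp2 with Ttr and the high one of Calml4 therefore rest on these 2 arrays. Among the remaining 7 arrays the induced ones are high in Ttr, Igf2 and Igfbp2 alike. Per unit of Ttr on the log2 scale, the slope was 0.37 for Folr1, 0.25 for Calml4, 0.09 for Igf2 and 0.11 for Igfbp2. The 5 genes therefore did not order the arrays alike: Folr1 ranked them nearly as Ttr did, and Igf2 and Igfbp2 did so less closely over all 9.

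Among the 7051 tested probe sets off the floor on at least 6 of the hippocampal arrays, Folr1 was the one most like Ttr, and Kl was the second. Kl encodes klotho, a protein of kidney and choroid plexus, with r = 0.97. It read 9.14 and 8.90 in wild type, 8.47 on dox, 9.42 and 9.42 after 1 week, 7.98 and 9.30 after 2, 9.11 after 5 and 8.02 on the reversed array. Its CA1 values of 7.65, 7.30 and 7.70 were below all hippocampal arrays. The third was a probe set with no symbol in the annotation used (r = 0.96), and the next named genes were Gnpnat1 (0.91), Cish (0.90), Tox4 (0.89), Atp6ap2 (0.89), Capzb (0.88), Lamp2 (0.87) and Ngrn (0.87). Calml4 had rank 35, Igfbp2 rank 645 and Igf2 rank 789. These genes were picked as the highest of 7051 correlations over few arrays, so high values are partly due to that choice. Over all 12 arrays Kl and Ngrn were the 2 of these 8 named genes that were again among the 8 named genes most like Ttr, and the probe set with no symbol again had rank 3. The rest of the 8 had r from -0.05 (Capzb) to 0.85 (Atp6ap2) over all 12 arrays.

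**Figure D2:**
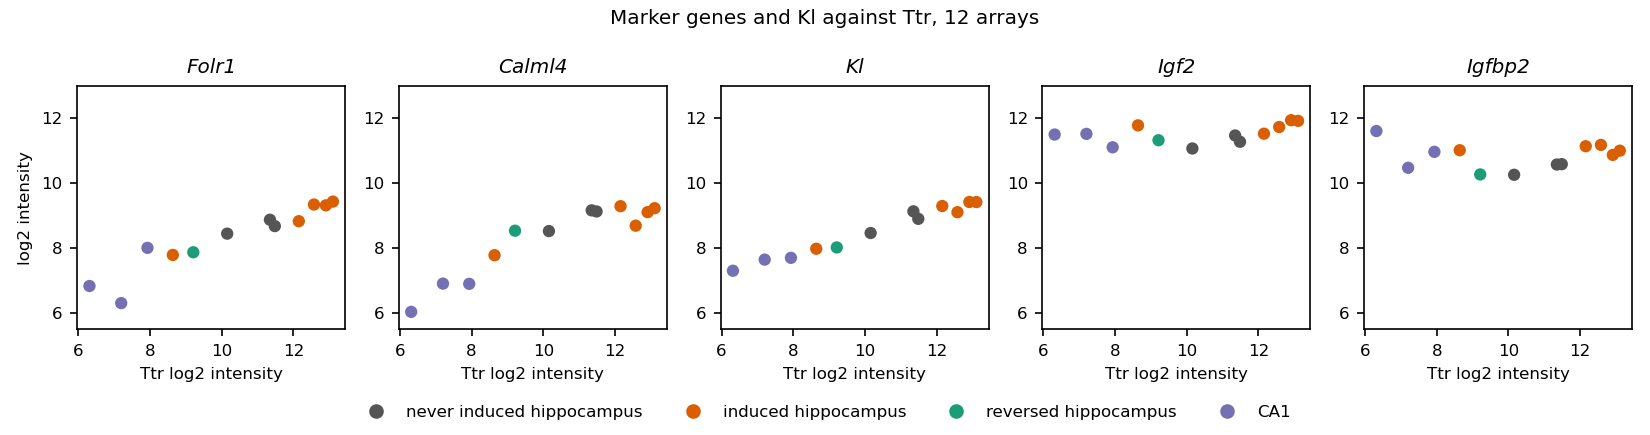
Log2 scaled intensity of Folr1, Calml4, Kl, Igf2 and Igfbp2 (vertical axes) against that of Ttr (horizontal axes); each point is 1 of the 12 arrays, coloured by group. Folr1 (r = 0.98 over the 9 hippocampal arrays) and Kl (0.97) track Ttr, while Igf2 (0.47) and Igfbp2 (0.51) have small slopes (0.09 and 0.11). Without the reversed array and 2-week array 1, r was 0.96 for Igf2 and 0.86 for Igfbp2.

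CA1 was compared with whole hippocampus, a comparison of tissue that was cut out more narrowly with tissue that was not. Of the 5 tested member probe sets, 3 were lower in CA1 by limma with Benjamini-Hochberg adjustment. Of all 7069 tested probe sets 35.9% were called in either direction, 1732 lower and 807 higher. Ttr fell by 4.27 ± 0.89 (SE; 95% interval -6.24 to -2.31; adjusted p = 0.00513), which is 19.3-fold lower. Folr1 fell by 1.94 ± 0.37 (adjusted p = 0.00364), or 3.84-fold. Calml4 fell by 2.19 ± 0.34 (adjusted p = 0.00129), at least 4.58-fold lower since 1 CA1 array was at the floor. These sizes depend on the floor, since the CA1 readings lie near it: with a floor at the 40th percentile the differences were -3.57 for Ttr, -0.92 for Folr1 and -1.04 for Calml4 (limma adjusted p = 0.0068, 0.0347 and 0.0182). Ttr and Calml4 lay below all 9 hippocampal arrays on every CA1 array, as did 16.8% of tested probe sets.

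Igf2 and Igfbp2 did not pass in this comparison. Igf2 differed by -0.11 ± 0.15 (95% interval -0.45 to 0.22; limma adjusted p = 0.568) and Igfbp2 by 0.12 ± 0.16 (-0.23 to 0.48; 0.565), so falls of the size seen in Folr1 lie outside both intervals. The median difference was -1.94 over the 5 member genes and -0.13 over all tested probe sets. All CA1 arrays had the lower deposited scale, and with that scale as a block none of the 5 passed in limma (Ttr -4.71, adjusted p = 0.123; Folr1 -2.20, 0.0945; Calml4 -2.47, 0.0559). In that fit 288 probe sets passed over all. Among the lower-scale arrays alone, wild-type hippocampus array 1 exceeded the highest CA1 array 10.7-fold in Ttr, 1.82-fold in Folr1 and 4.78-fold in Calml4.

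At 1 week of induction, 4 of the 5 genes (all but Calml4) lay above all never-induced arrays on both arrays, as did 12.4% of tested probe sets. Ttr was higher by 2.01 ± 0.93 (95% interval -0.10 to 4.12), or 4.03-fold, with a limma adjusted p of 0.969. Folr1 was higher by 0.71 ± 0.38 (0.969), Igf2 by 0.66 ± 0.19 (0.943), Igfbp2 by 0.46 ± 0.21 (0.969) and Calml4 by 0.23 ± 0.44 (0.996). None of the 5 passed, against 0.0283% of all tested probe sets, or 2; 354 had an unadjusted p under 0.05. The median difference was 0.66 over the member genes and -0.01 over all tested probe sets.

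At 2 and 5 weeks Igf2 and Igfbp2 kept positive differences, while Ttr and Folr1 had negative ones at 2 weeks and positive ones at 5. At 2 weeks against never induced, the limma estimates were -0.60 ± 0.93 for Ttr, -0.36 ± 0.38 for Folr1 and -0.40 ± 0.44 for Calml4, and 0.38 ± 0.19 for Igf2 and 0.60 ± 0.21 for Igfbp2 (adjusted p from 0.944 to 1). The 2-week mean of Ttr, Folr1 and Calml4 combines arrays on either side of the never-induced mean, and without array 1 the differences were 1.16, 0.16 and 0.35. None of the 5 passed at 2 weeks, against 0.156% of all tested, or 11 probe sets, with 315 at an unadjusted p under 0.05. At 5 weeks the estimates were 1.58 ± 1.17 for Ttr, 0.68 ± 0.49 for Folr1, -0.25 ± 0.55 for Calml4, 0.46 ± 0.24 for Igf2 and 0.71 ± 0.27 for Igfbp2 (adjusted p from 0.56 to 0.997). None passed, against 0.99% of all, with 516 at an unadjusted p under 0.05.

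Between 2 weeks and 1 week, Ttr differed by -2.61 ± 1.01 (limma adjusted p = 0.481) and Folr1 by -1.07 ± 0.42 (0.487). These rest on which 2-week array is used: without array 1 they were -0.85 and -0.55, and without array 2 -4.37 and -1.59. No probe set of the array passed there (0%), and 672 had an unadjusted p under 0.05. Between 5 weeks and 1 week, Ttr differed by -0.43 ± 1.24, and none of the 5 passed, against 0.637% of all, with 484 at an unadjusted p under 0.05. These times share no arrays, but all are compared with the same never-induced arrays above.

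With the induced times pooled, Igf2 was higher by 0.51 ± 0.15 (95% interval 0.17 to 0.85; limma unadjusted p = 0.00727) and Igfbp2 by 0.57 ± 0.16 (0.21 to 0.93; 0.0055), and both had an adjusted p of 0.999. Each was above every never-induced array on 5 of 5 induced arrays, as were 1.71% of tested probe sets. The corresponding differences were 0.88 ± 0.91 for Ttr, 0.28 ± 0.38 for Folr1 and -0.12 ± 0.35 for Calml4 (adjusted p = 0.999 for each). None of the 5 passed, against 0.0283% of all, with 223 at an unadjusted p under 0.05. Without 2-week array 1 the Ttr, Folr1 and Calml4 differences were 1.69, 0.56 and 0.14. Without the on-dox array they were 0.46, 0.17 and -0.33, and without 1-week array 2 they were 0.57, 0.15 and -0.22. Igf2 and Igfbp2 were above the never-induced arrays on 2-week array 1 too, where Ttr, Folr1 and Calml4 had their lowest hippocampal values.

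On the reversed array Ttr differed from the never-induced mean by -1.78 ± 1.44, with Folr1 at -0.79 ± 0.60, Calml4 at -0.40 ± 0.55, Igf2 at 0.05 ± 0.24 and Igfbp2 at -0.20 ± 0.26 (limma adjusted p = 1 for each). No probe set passed (0%), and 180 had an unadjusted p under 0.05. In CA1, VC mice differed from wild type by -0.08 ± 1.52 in Ttr, 1.12 ± 0.64 in Folr1, -0.44 ± 0.59 in Calml4, -0.22 ± 0.26 in Igf2 and 0.81 ± 0.27 in Igfbp2 (adjusted p from 0.318 for Igfbp2 to 0.994 for Ttr). None of the 5 passed, against 0.467% of all, with 708 at an unadjusted p under 0.05. The effect of the transgene was not shown to differ between CA1 and hippocampus for any member: the difference of the effects was -0.73 ± 0.30 for Igf2 (adjusted p = 0.823) and had an adjusted p of 0.989 for the others.

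**Figure D3:**
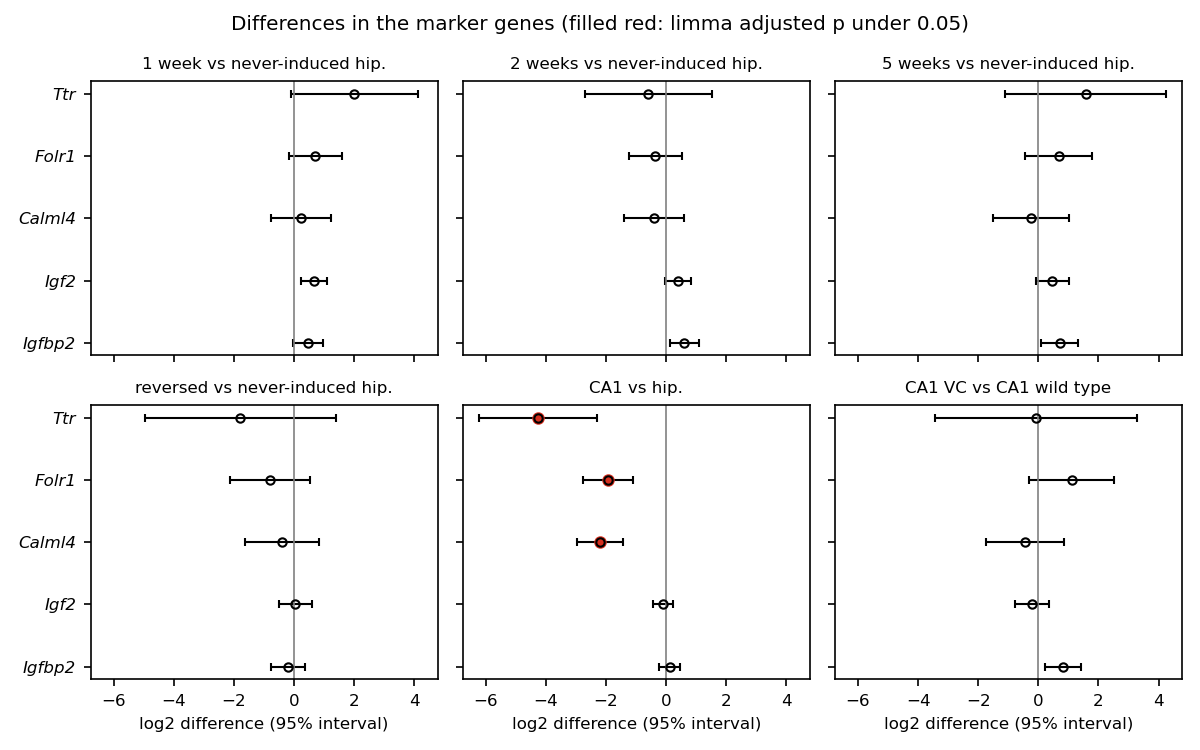
Log2 differences (horizontal axes) of the 5 genes in 6 comparisons, with 95% intervals from limma; filled red points have an adjusted p under 0.05. Ttr, Folr1 and Calml4 are lower in CA1 than in hippocampus, while Igf2 (-0.11) and Igfbp2 (0.12) lie near 0.

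A list of 44 other choroid plexus genes was set beside the members, of which 26 had a probe set and 13 were tested. Relative to the never-induced mean, their median ran from -0.14 to 0.11 on the never-induced arrays and was 0.32 and 0.23 after 1 week, -0.04 and 0.19 after 2, 0.21 after 5 and -0.02 on the reversed array. In CA1 it was -0.30 in wild type and -0.59 and -0.63 in VC mice, where all tested probe sets had medians from -0.15 to -0.10. Over all 26 genes with a probe set, tested or not, the CA1 medians were nearer 0, at -0.28 in wild type and -0.25 and -0.38 in VC mice. The median of Ttr, Folr1 and Calml4 ran wider, from -1.16 on 2-week array 1 to 0.77 on 1-week array 2 in hippocampus, and from -2.91 to -2.04 in CA1. This median leaves out Igf2 and Igfbp2, which did not pass in CA1. Over all 5 members it ran from -0.88 on 2-week array 1 to 0.68 at 5 weeks in hippocampus. In CA1 the 5-member median was -2.03 in wild type and -1.83 and -0.66 in VC mice, the last inside the hippocampal range. At 1 week 13 of the 13 other genes had a positive difference, with a median of 0.25 against -0.01 over all tested probe sets, and none passed in limma. These genes were read on the same arrays, so their signs are not independent. In CA1 12 of 13 had a negative difference, with a median of -0.43 against -0.13 over all tested probe sets. There 5 fell: Kl (-1.37), Car12 (-1.27), a carbonic anhydrase, Lbp (-0.94), Msx1 (-0.88), a homeobox factor, and Cab39l (-0.68). These 5 of 13 were all called lower. Of all 7069 tested probe sets, 1732 were called lower and 807 higher, which is 35.9% in either direction. Between the 2-week arrays 7 of the 13 were higher on array 2. Aqp1, the water channel of the epithelium, Cldn1, Cldn2, Slc4a5, Ace, Krt8 and Krt18 were under the filter.

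Markers of neighbouring tissues were described by the median of each list, which hides single genes that ranged widely. Among these, picked out after their values were seen, Nupr1 of the meninges list ran from 6.04 to 9.10 over the hippocampal arrays, Pcolce of the same list from 7.68 to 9.85, and Vim of the ependyma list from 6.93 to 9.10. The median of the ependyma list (8 tested genes) ran from -0.05 to 0.15 over the 9 arrays and that of the meninges and fibroblast list (12 genes) from -0.07 to 0.41, and their part in the Igf2 and Igfbp2 values was not tested. In CA1 their medians ran from -0.67 to -0.25 for ependyma, where 5 of the 8 genes fell, and from -0.65 to -0.25 for meninges, where 5 of the 12 fell and 1 rose. Over all 7069 tested probe sets 35.9% were called in CA1, 1732 lower and 807 higher, and the counts for each list in CA1 are to be read against that. The thalamus and habenula list (8 genes) ran from -0.23 to 0.14 in hippocampus and from -0.78 to -0.55 in CA1. Microglia and macrophage markers (10 genes) were at 0.87 on both 2-week arrays, which differed in Ttr, and at 1.60 at 5 weeks. Of the other 8 tested genes of the IGF system, 2 had a positive difference at 1 week, with a median of -0.04, and none passed in limma; in CA1 2 rose and 3 fell, against the 35.9% called over all. In the retinol, thyroid hormone and folate list, 1 of 6 tested genes had a positive difference at 1 week, and in CA1 1 rose and 2 fell. The positive gene at 1 week was Rbp4, which encodes the retinol-binding protein carried by the Ttr product. Rbp4 read 9.54 and 9.42 after 1 week, against 9.34 on the highest never-induced array, with r = 0.57 with Ttr over the hippocampal arrays. The other tested genes were Thra, Dio2, Folr2, Slc19a1 and Fpgs, so this count does not describe partners of Ttr and Folr1. Of 4 tested calmodulin family genes, 1 fell in CA1, where 35.9% were called over all.

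**Figure D4:**
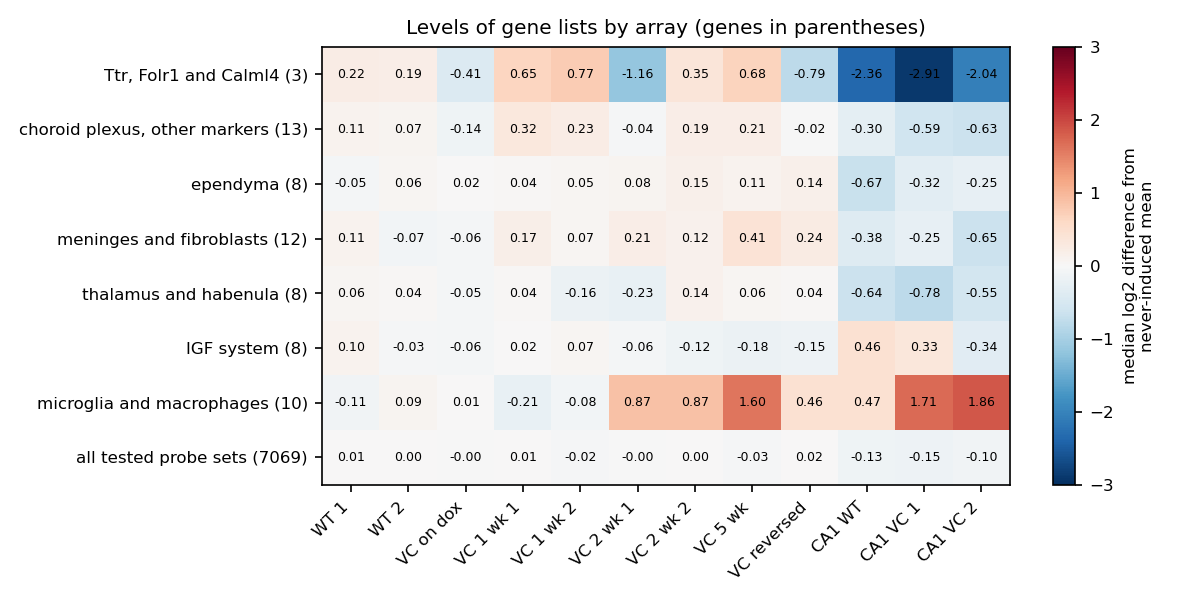
Median log2 difference from the never-induced mean for 8 gene lists (rows, with the number of genes) on each array (columns), coloured from blue (lower) to red (higher) with the value printed. Ttr, Folr1 and Calml4 run from -1.16 to 0.77 in hippocampus, while the ependyma list stays between -0.05 and 0.15. The row of Ttr, Folr1 and Calml4 leaves out Igf2 and Igfbp2, and the median of all 5 members runs from -0.88 to 0.68 in hippocampus.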

How the data were processed

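The 12 samples were hybridised to Affymetrix MG-U74Av2 arrays, 1 array each. The deposited values are intensity on a linear scale; per the submitters' processing notes they came from GCOS, and no source used here states its version or scaling. Each array was divided to a trimmed mean of 1000 (2% of values left out at each end), 66 control probe sets were left out, values were floored at the 20th percentile (65.7, or 6.04 on the log2 scale) and log2 transformed. Probe sets above the median of their own array on at least 2 arrays were tested, 7069 of 12422. Symbols came from the platform annotation: 10833 probe sets had one, 396 several and 1193 none.

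Two-sided tests came from lmFit and eBayes of limma 3.58.1, run in R 4.3.3, with Benjamini-Hochberg adjustment over all tested probe sets and a threshold of 0.05. One fit, with 5 levels (CA1 VC, CA1 wild type, and reversed, induced or never-induced hippocampus), gave the pooled, reversed and CA1 comparisons, and one with 7 levels separated 1, 2 and 5 weeks. The fits were also run on simulated data. There each probe set had a smaller SD than over the real hippocampal arrays, so that run does not show how the fits perform on these data. CA1 is the mean of its 2 levels, hippocampus the mean of never induced and induced. The level of a list is the median, over its tested genes with the brightest probe set each, of the difference from the never-induced mean. The genes named are all probe sets of the 5 symbols, the 8 other single-symbol genes most correlated with Ttr over hippocampal arrays, tested genes of the choroid plexus list, and Creb1. The members and lists were chosen with earlier results of these data known. Alternatives were other scalings, floors, filters and variance models, deposited scale or replicate number as a block, and leaving out single arrays. An array alone in its level was not left out. The number of arrays limits the precision.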

Additional observations from a re-analysis of the deposited data

Results flagged for a closer look

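In 5 of the 20 probe sets checked (the members and the other choroid plexus genes), 1 of the 5 induced hippocampal arrays stood apart, by a gap to the nearest array, as a share of the whole range, above 0.71; chance gives this in about 1 in 20 groups. For Ttr the gap share was 0.787, with 2-week array 1 at 8.64 and the others from 12.15 to 13.10. Kl (0.781) and Abca4 (0.824), a transporter of retinoids, had the same array lowest, at 7.98 and 6.89. The dim second probe set of Igf2 had a gap share of 1.000, with 2-week array 1 at 7.30 and the others at the floor. Any value above the floor would give this share, so it says nothing about that array. For Cd59a, a complement inhibitor, the gap share was 0.871, with 2-week array 2 highest at 9.65. All checks use the same 5 arrays, which mix 1, 2 and 5 weeks. Kl and Abca4 also correlate with Ttr over the 9 hippocampal arrays (r = 0.97 and 0.83). The flags are therefore not independent, and their number cannot be set against the rate of 1 in 20.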

How the results depend on the processing

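In the CA1 comparison 3 member probe sets passed. As single arrays were left out, the differences ran from -4.68 to -3.87 for Ttr, -2.24 to -1.65 for Folr1 and -2.41 to -1.98 for Calml4. The CA1 wild-type array, alone in its level, was not left out. With values as deposited 5 passed and with the deposited scale as a block 0 passed; the other settings kept the number that passed in each comparison. As deposited, the median of all tested probe sets in CA1 was -2.28. Directions that turned were those of estimates that had not passed. With values as deposited they were Calml4 in all induced (0.74) and at 5 weeks (0.61), Ttr, Folr1 and Calml4 at 2 weeks (0.26, 0.50 and 0.46), Igfbp2, Folr1 and Calml4 on the reversed array (0.66, 0.067 and 0.46), Ttr in CA1 VC against wild type (0.19), and Igfbp2 in CA1 against hippocampus (-2.03, limma adjusted p = 0.00133). With median scaling they were Folr1 at 5 weeks against 1 week (0.0084), Igf2 on the reversed array (-0.074) and Igf2 in CA1 (0.17), and with a floor at the 40th percentile Ttr in CA1 VC (0.043). With the scale block it was Igfbp2 in CA1 (-0.004).

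The ranges that crossed 0 as single arrays were left out were these. Without 2-week array 1 the sign turned for Calml4 in all induced (-0.33 to 0.14), for Ttr (-2.36 to 1.16), Folr1 (-0.88 to 0.16) and Calml4 (-1.16 to 0.35) at 2 weeks, and for Calml4 at 2 weeks against 1 week (-1.39 to 0.12). It turned without 1-week array 2 for Folr1 at 5 weeks against 1 week (-0.090 to 0.025), without the on-dox array for Igf2 on the reversed array (-0.050 to 0.15), and without CA1 VC array 1 for Igfbp2 in CA1 (-0.037 to 0.28) and Ttr in CA1 VC (-0.89 to 0.73). The cause of these turns was not tested. Ttr at 1 week ran from 1.59 to 2.25.

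Deviations of same-numbered arrays correlated from -0.23 to 0.20 over 6 pairs of groups. These values showed no pairing by replicate number common to all groups, but cannot exclude one within some of them. With the replicate block, Ttr and Folr1 at 5 weeks against 1 week were 0.30 and 0.24, and 3 members passed in CA1.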
